A study of Mus musculus with 7 samples.

Results

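The B-lineage genes described here are Vpreb1, Vpreb3, Igll1, Ighm, Cd79a, Cd79b, Blnk, Pax5 and Ebf1, 9 of the 43346 genes in the deposited allele counts. They were chosen by symbol, each matching 1 Ensembl gene identifier in the GENCODE mouse annotation, by a rule that uses no measured value. All 9 reached 10 counts in each mouse and passed the filter on low counts. The tissue was the growth plate, the cartilage at the end of a growing bone, dissected from both tibial ends of 7 male C57BL/6JxCAST/EiJ F1 mice aged 21 days. C57BL/6J (B6) is the reference laboratory strain and CAST/EiJ (CAST) is an inbred strain derived from wild mice, so that reads covering a variant could be assigned to the B6 or the CAST copy of a gene. The mice received no treatment and formed 1 group, which makes the comparison between both alleles of the same animal the contrast of the design. The labels call the tissue growth plate chondrocyte, but whole dissected tissue was homogenized, without sorting of cells.

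B cells are made in bone marrow, which lies against the growth plate. A precursor first rearranges its heavy chain gene and pairs the heavy chain of IgM with a surrogate light chain, made of Igll1 with Vpreb1 or Vpreb2. The heavy and surrogate light chains reach the surface with the signalling chains Cd79a and Cd79b as the pre-B cell receptor. Blnk carries the signal onward in the cell, and the transcription factors Ebf1 and Pax5 set and hold B-cell identity. Light chain rearrangement follows, and later B cells no longer make the surrogate light chain.

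Vpreb1 has a near copy, Vpreb2, and the resemblance limits how reads can be assigned to it. Over their longest coding exon, 380 bases in each gene, the copies differ at 7 positions and are 98.2% identical in the GENCODE transcripts (GRCm38/mm10). Of the 1252 windows of 75 bases, the read length, in Vpreb1 transcripts, 136 (10.9%) occur unchanged in Vpreb2. The stretch of 75 coding bases with the most differences is shown for both genes, 5′ to 3′ on the coding strand, with the 5 differing bases in capitals. Vpreb1 is at chr16:16868638-16868712 on the minus strand and Vpreb2 at chr16:17980964-17981038 on the plus strand.
Vpreb1: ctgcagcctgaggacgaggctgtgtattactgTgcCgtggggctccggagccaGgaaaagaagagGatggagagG
Vpreb2: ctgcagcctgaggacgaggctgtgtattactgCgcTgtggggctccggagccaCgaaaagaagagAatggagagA
In contrast, the stretch of the same exon with the fewest differences, at chr16:16868867-16868941 in Vpreb1 and chr16:17980735-17980809 in Vpreb2, is identical, and a read of this length from it names no gene of the pair.
Vpreb1 and Vpreb2: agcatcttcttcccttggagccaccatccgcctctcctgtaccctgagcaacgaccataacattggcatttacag
In the files, the total of Vpreb1 had a fractional part in all 7 mice, whereas the sum of Vpreb1 and Vpreb2 was whole, to a tolerance of 0.0001, in 6 of 7 mice. A total that is not whole marks reads divided between genes. Such totals were common, as 51.4% of the 21805 genes in the allele comparison below had one in some mouse. Among the B-lineage genes they also occurred for Pax5 (7 mice), Ebf1 (6 mice) and Blnk (4 mice).

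The bases just before the start sites of these genes were searched for 3 motifs on both strands. RefSeq promoter windows (GRCm38.p6), which reach from 250 bases before the start to 50 after it, were matched for 7 of the 9 genes, as 8 windows since Ebf1 has a second start. The full palindrome bound by EBF factors, TCCC followed by any 2 bases and GGGA, was in none of the 8 windows and in 0.904% of all 32851 promoters. The shorter stretch GGGAAT, an outer arm of the extended EBF palindrome, was in 3 of the 8 windows, those of Cd79a, Vpreb3 and 1 start of Ebf1, and in 13.1% of all promoters. The octamer ATGCAAAT, known from immunoglobulin promoters, was in the windows of Vpreb3 and Blnk and in 1.74% of all promoters. The Vpreb3 and Cd79a windows are printed, cut to the bases outside annotated exons, with GGGAAT or the octamer in capitals. The octamer of Vpreb3 is on the opposite strand and starts 45 bases before the start site, and the GGGAAT stretches start 175 bases (Vpreb3) and 171 bases (Cd79a) before it. Both are on the plus strand, Vpreb3 at chr10:75948050-75948299 and Cd79a at chr7:24897247-24897380.
Vpreb3: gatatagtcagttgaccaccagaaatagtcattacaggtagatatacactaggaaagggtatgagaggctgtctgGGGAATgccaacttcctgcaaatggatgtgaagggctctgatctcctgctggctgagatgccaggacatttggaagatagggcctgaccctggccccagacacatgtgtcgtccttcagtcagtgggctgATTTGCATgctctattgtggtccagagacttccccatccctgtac
Cd79a: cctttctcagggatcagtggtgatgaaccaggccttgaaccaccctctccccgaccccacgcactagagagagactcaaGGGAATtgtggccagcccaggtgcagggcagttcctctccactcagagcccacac
These matches describe letters in a window and no binding was measured.

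The growth plates held 14098019 to 37849667 counts per mouse, with mouse 7 lowest and mouse 5 highest. These totals exceed several-fold the average number of read pairs that the labels give per sample, and how lanes and read ends were combined is not given in the sources used here, so counts may not be independent reads. Cartilage genes were abundant, with Col2a1, the main cartilage collagen, at 53230 ± 11260 CPM (a gene's counts scaled to a file total of 1000000; mean ± SD, n = 7 here and below) and Acan, the main proteoglycan, at 7994 ± 1214 CPM. Marrow and bone genes were present as well. The erythroid markers Hba-a2 and Hbb-bs, which encode globins, averaged 5719 and 5098 CPM, the neutrophil markers S100a8 and S100a9 averaged 530 and 486 CPM, and Col1a1, the main bone collagen, averaged 46550 CPM. The label of a chondrocyte sample therefore describes part of the RNA.

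The 9 B-lineage genes together made up 625 ± 213 CPM. From the lowest to the highest, their summed level was 344 CPM for mouse 3, 416 CPM for mouse 4, 551 CPM for mouse 2, 638 CPM for mouse 1, 658 CPM for mouse 8, 819 CPM for mouse 5 and 951 CPM for mouse 7. The highest mouse thus had 2.76 times the level of the lowest. In whole tissue, fewer cells of a type and less RNA per cell cannot be told apart.

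Vpreb3 (chr10:75943057-75949657) was grouped here with the surrogate light chain genes Igll1 and Vpreb1, though it is not part of that chain. It was the most abundant of the 3 genes at 29.9 ± 11.2 CPM. Vpreb3 ran from 14.2 CPM in mouse 3 through a median of 28.9 CPM to 45.8 CPM in mouse 7. Its protein binds the heavy chain inside the cell during assembly. Igll1 (chr16:16860671-16863985), the constant part of the surrogate light chain, averaged 24.9 ± 7.29 CPM, from 15.6 CPM in mouse 3 through a median of 24.1 CPM to 37.9 CPM in mouse 5. Vpreb1 (chr16:16868403-16870843), the variable part, averaged 14.3 ± 4.01 CPM, from 9.06 CPM in mouse 3 through a median of 13.9 CPM to 20.7 CPM in mouse 5. Vpreb1 and Igll1 are neighbours, 4418 bases apart on chromosome 16 and on the same strand. All 3 genes were lowest in mouse 3, and mice 5 and 7 held the highest values of each.

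Ighm (chr12:113418558-113422730), the constant region of the IgM heavy chain, was the most abundant of the 9 genes at 352 ± 134 CPM, and it ran from 177 CPM in mouse 3 through a median of 366 CPM to 567 CPM in mouse 7. The signalling chain Cd79b (chr11:106311341-106314762) averaged 82.5 ± 31.4 CPM, with 38.8 CPM in mouse 3, a median of 78.9 CPM and 129 CPM in mouse 7. Its partner Cd79a (chr7:24897381-24902197) averaged 41.8 ± 15.5 CPM, with 19.7 CPM in mouse 3, a median of 39.9 CPM and 65.8 CPM in mouse 7. These receptor genes followed the same order of mice, and their coefficients of variation of 37.99% (Ighm), 38.1% (Cd79b) and 37.0% (Cd79a) were among the larger ones in the tissue. Only 2.58%, 2.55% and 3.03% of the 15111 genes that reached 10 counts in each mouse varied as much, and the median gene had a coefficient of variation of 15.1%. The adaptor Blnk (chr19:40928927-40994535) averaged 17.7 ± 5.45 CPM, from 11.9 CPM in mouse 4 through a median of 15.2 CPM to 24.9 CPM in mouse 5.

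Both transcription factors differed in their spread. Pax5 (chr4:44524757-44710487), required to keep B-lineage identity, averaged 9.63 ± 3.02 CPM, from 5.77 CPM in mouse 3 through a median of 8.48 CPM to 14.2 CPM in mouse 5. Ebf1 (chr11:44617317-45008091), which acts before Pax5 in the lineage and is also known from stromal and fat cell precursors, averaged 52.0 ± 7.29 CPM, from 42.9 CPM in mouse 4 through a median of 51.2 CPM to 63.2 CPM in mouse 5. Its coefficient of variation of 14.01% was the smallest among the 9 genes, and 56.7% of the 15111 genes varied as much or more. In mouse 3, where the other genes of the set except Blnk were lowest, Ebf1 stood at its median.

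**Figure D1:**
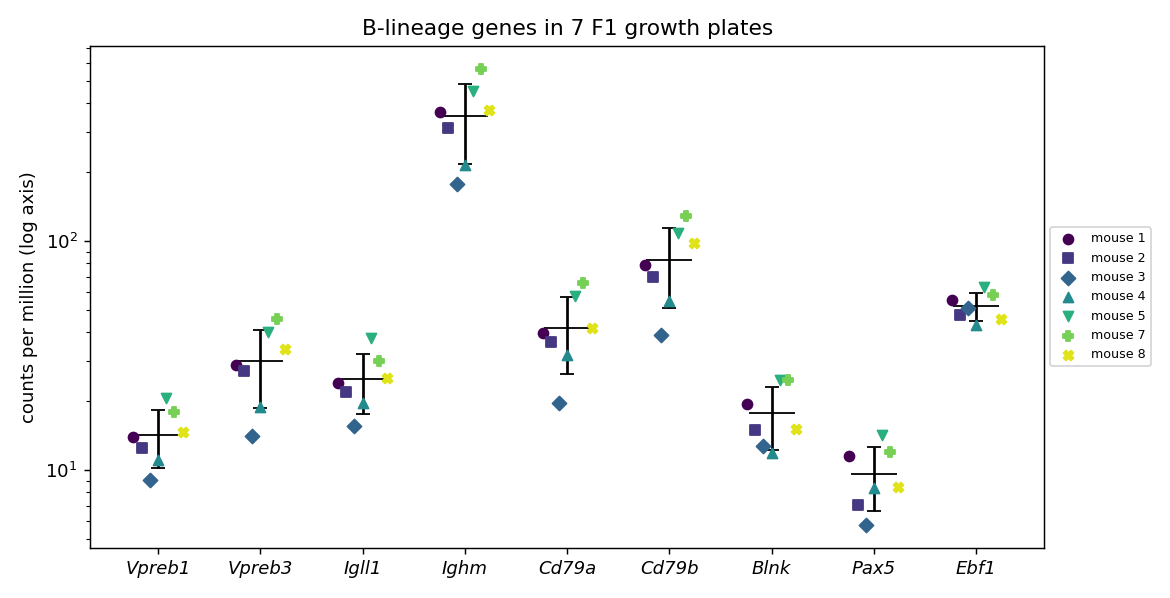
CPM of each of the 9 genes (log axis) in each of the 7 mice, with a point per mouse and bars for the mean ± SD. Mouse 3 or mouse 4 is lowest for every gene and mouse 5 or mouse 7 is highest, from 42.9 to 63.2 CPM for Ebf1 and from 177 to 567 CPM for Ighm.

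Levels of different genes were compared per length, as CPM per kilobase of merged annotated exons. The order was Ighm at 187 ± 71.0, Cd79b at 57.6 ± 21.96, Vpreb3 at 34.8 ± 13.0, Cd79a at 28.7 ± 10.6, Vpreb1 at 11.9 ± 3.35, Igll1 at 11.5 ± 3.37, Ebf1 at 5.33 ± 0.747, Blnk at 2.96 ± 0.909 and Pax5 at 1.09 ± 0.341 CPM per kilobase. Of the 8 neighbouring pairs 7 in this order kept it in every mouse, each with p = 0.0156 when the log2 ratio was put to an exact sign-flip permutation test, two-sided throughout, the smallest p that 7 mice allow, and 0.0179 after Benjamini-Hochberg adjustment over the 8 pairs. Vpreb1 and Igll1 lay closest, at a ratio of 1.03 with a range of 0.986 to 1.09, and Vpreb1 was higher in 6 of 7 mice (exact sign-flip permutation test, p = 0.0469, adjusted 0.0469). The order was taken from the means of these same mice. The p values therefore describe how steadily it held between mice and test no ranking set beforehand. It also rests on the annotated exon lengths, which may exceed the transcripts made in this tissue.

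The ratios of Ighm to Vpreb3, Cd79a and Cd79b were steady between mice, whereas those to Igll1 and Vpreb1 were less so. Per length, Ighm exceeded Vpreb3 by 5.39 ± 0.299 times, Cd79b by 3.26 ± 0.240 times and Cd79a by 6.52 ± 0.665 times. It exceeded Igll1 by 15.97 ± 3.21 times, from 12.5 times in mouse 4 and 13.0 times in mouse 3 to 21.7 times in mouse 7, and Vpreb1 by 15.4 ± 2.71 times, from 12.4 to 20.03 times in the same mice. Mice 3 and 4, with the lowest summed levels, also had the most Igll1 and Vpreb1 RNA relative to Ighm. Mouse 5, with the second highest sum, was close to them at 13.7 times for Igll1. Ighm averaged 352 of the 625 CPM of the sum, so the sum and these ratios are not independent. Both transcription factors also had their lowest ratios in mice 3 and 4. Ighm exceeded Ebf1 by 17.9 times in mouse 3 and 50.4 times in mouse 7, and Pax5 by 144 and 122 times in mice 3 and 4 and 222 times in mouse 7.

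**Figure D2:**
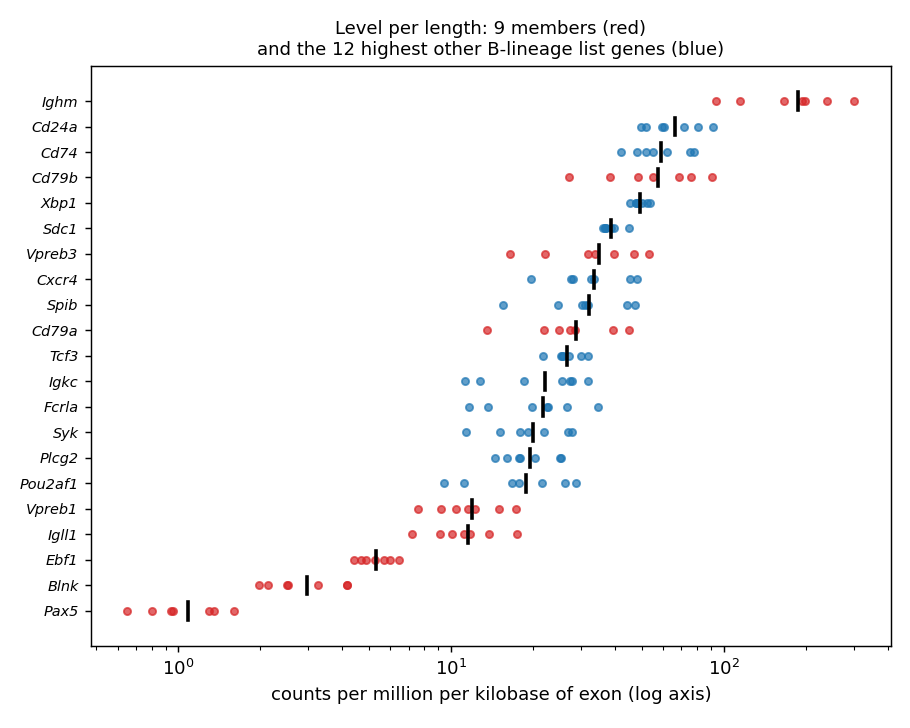
Level per length (CPM per kilobase of exon, log axis) of the 9 genes (red) and of the 12 highest other genes from the B-lineage lists (blue), with a point per mouse and a black line at the mean. Ighm is highest at a mean of 187 CPM per kilobase and Pax5 lowest at 1.09.

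Light chain and later isotype genes were far below Ighm. Per length, Ighm exceeded the kappa constant region Igkc by 8.46 ± 0.775 times, the lambda constant region Iglc2 by 11.1 ± 1.22 times and Ighd, the constant region of IgD, by 68.1 ± 14.3 times. Summed over annotated variable segments, heavy chain segments reached 28.9 ± 9.59 CPM (113 genes, of which 69 had a count in every mouse), kappa segments 11.4 ± 4.26 CPM (97 genes) and lambda segments 3.74 ± 1.14 CPM (3 genes). All 3 sums were lowest in mouse 3 and highest in mouse 7, as was Ighm. Genes of the plasma cell list fell at both ends of the scale. Xbp1 and Sdc1, which other secreting or adherent cells also make, averaged 160 and 147 CPM, Mzb1, a chaperone of immunoglobulin assembly, 13.3 CPM and the factor Prdm1 4.34 CPM. Jchain, which joins secreted IgM chains, was at 0.475 CPM and Tnfrsf17, a plasma cell survival receptor, at 0.0791 CPM. Ighg1 and Ighg3, the constant regions of IgG1 and IgG3, were listed at 0 in at least 1 mouse and averaged 0.0148 and 0.0249 CPM.

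The allele contrast asked whether the B6 or the CAST copy of each gene gave more RNA in the same animals. Males carry the X chromosome of the dam only, and 91.2% of all X-linked counts were B6, so the dams were B6. The B6 copy was thus always the maternal one, and strain cannot be told apart from parent of origin. Counts were compared with edgeR's likelihood-ratio test, an FDR under 0.20 made a call, and the log2 fold change is CAST minus B6. Over all 21805 genes tested, 32.6% were called, 15.4% with CAST higher and 17.2% with B6 higher. These include genes on the X chromosome, whereas the B-lineage genes described here all lie on autosomes. With X, Y and mitochondrial genes left out, 6385 of 20992 genes were called. Of the 9 B-lineage genes, 3 were called (33.3%), all with CAST higher, which is close to the share over all genes. Their median log2 fold change was 0.18, beside 0.01 over all tested genes. All 3 calls were also made by edgeR's quasi-likelihood test and by DESeq2.

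Cd79a showed the largest allele difference of the 9 genes. CAST counts made up 59.9% of its total in mouse 2, a median of 62.1% and 67.1% in mouse 3, so that no mouse came near an equal share. The CAST allele had 688 ± 355 counts and the B6 allele 398 ± 181 counts, a log2 fold change of 0.79 ± 0.23 (SE; FDR 0.00476, edgeR's likelihood-ratio test), and CAST was higher in 7 of 7 mice (exact sign-flip permutation test, p = 0.0156). This was the only one of the 9 genes that also passed an FDR under 0.05 in the same fit. Its totals were whole in every mouse. Part of the sequence is nevertheless shared with an annotated gene absent from the count rows, Gm32220, in 62 of 1383 windows of 75 bases (4.48%).

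Both genes of the chromosome 16 pair were called with nearly the same size of difference. Igll1 had 54.5% CAST counts in mouse 3, a median of 56.4% and 59.8% in mouse 2, with CAST higher in 7 of 7 mice (log2 fold change 0.40 ± 0.18 SE, FDR 0.104, edgeR's likelihood-ratio test). Vpreb1 had 48.7% in mouse 3, a median of 56.3% and 59.4% in mouse 1, with CAST higher in 6 of 7 mice (0.40 ± 0.18, FDR 0.110, edgeR's likelihood-ratio test). The exact sign-flip permutation test gave p = 0.0156 for Igll1 and p = 0.0312 for Vpreb1. In the fit with the allele alone, either call depended on 1 mouse. Vpreb1 was no longer called without mouse 1 (FDR 0.228, edgeR) and Igll1 no longer without mouse 2 (FDR 0.231, edgeR). Both were also called in the fits with the mouse as a block, given below.

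Reads shared with Vpreb2 bear on the Vpreb1 value. Vpreb2, at 1.59 CPM, had 76.9% ± 6.91 CAST counts, and CAST was higher in 7 of 7 mice. With both genes summed, an analysis chosen after the data were seen, the CAST share was 58.2% ± 2.78, with CAST higher in 7 of 7 mice including mouse 3 (mean log2 ratio 0.48 in place of 0.35 for Vpreb1 alone, exact sign-flip permutation test, p = 0.0156). The exons of Vpreb1 also overlap by 108 bases those of Top3b, a topoisomerase gene with 978 counts on the opposite strand, and the sources used here do not state whether strand entered the counting.

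The other 6 genes were not called in that fit. Ighm had 49.7% CAST counts in mouse 3, a median of 52.3% and 55.1% in mouse 7 (log2 fold change 0.18 ± 0.23 SE, FDR 0.709, edgeR's likelihood-ratio test). Blnk had 48.5% in mouse 4, a median of 53.5% and 58.4% in mouse 3 (0.25 ± 0.18, FDR 0.416, edgeR's likelihood-ratio test). In both, CAST was higher in 6 of 7 mice, and the exact sign-flip permutation test gave p = 0.0312 and p = 0.0469.

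Cd79b, Vpreb3, Ebf1 and Pax5 were instead higher from B6 in 6 of 7 mice each. Cd79b ran from 46.6% to 50.6% CAST counts around a median of 48.7%, the narrowest range of the 9 genes (log2 fold change -0.03, FDR 1.0, edgeR's likelihood-ratio test). Vpreb3 ran from 43.6% to 52.3% (-0.10, FDR 0.910, edgeR) and Ebf1 from 44.8% to 51.4% (-0.11, FDR 0.530, edgeR). The exact sign-flip permutation test gave p = 0.0469 for Cd79b, 0.0938 for Vpreb3 and 0.0625 for Ebf1, none of them adjusted for the number of genes.

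Pax5 was the least even gene. It ran from 39.4% to 45.5% CAST counts in 6 mice and stood at 65.7% in mouse 4, where 115 of 175 counts came from CAST (log2 fold change -0.23 ± 0.22 SE, FDR 0.566, edgeR's likelihood-ratio test). Without mouse 4 it was called with B6 higher (-0.42, FDR 0.198, edgeR). Its totals were not whole in any mouse, and its exons overlap those of the antisense genes Gm12462 and 5730488B01Rik, which had 51.7 and 56.0 counts per mouse.

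**Figure D3:**
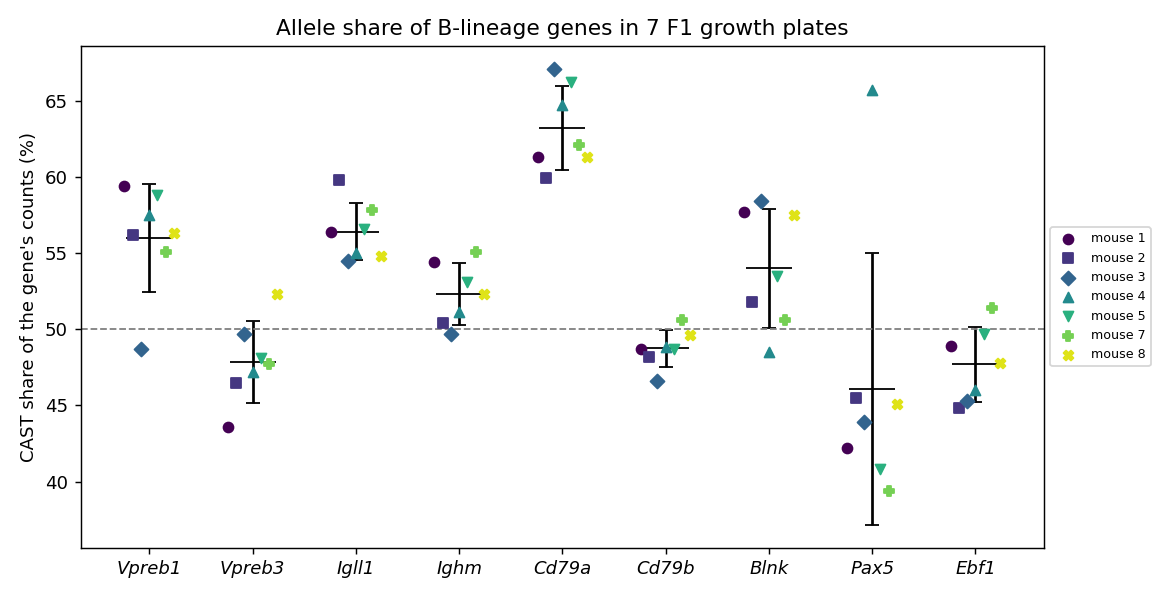
CAST share of the counts (%) of each gene in each of the 7 mice, with bars for the mean ± SD and a dashed line at 50%. All 7 mice lie above the line for Cd79a and Igll1, and the Pax5 point of mouse 4 at 65.7% lies apart from the 6 others at 39.4% to 45.5%.

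Both alleles of a gene came from the same animal and library, so the comparison was also fitted with the mouse as a block. Likelihood-ratio calls then covered 42.7% of all tested genes and 7 of the 9 B-lineage genes, 5 with CAST higher and 2 with B6 higher. The added calls were Ighm (log2 fold change 0.16, FDR 0.00347, edgeR), Blnk (0.27, FDR 0.00588, edgeR), Ebf1 (-0.11, FDR 0.0987, edgeR) and Cd79b (-0.05, FDR 0.162, edgeR). Under the quasi-likelihood test with the same block, 37.6% of all genes and 6 of the 9 were called, and Cd79b was not (FDR 0.235, edgeR). Cd79a, Igll1 and Vpreb1 were called in both blocked fits. Their FDR was 1.57e-33, 3.95e-16 and 6.45e-06 (edgeR's likelihood-ratio test) and 9.01e-05, 0.000562 and 0.00986 (edgeR's quasi-likelihood test). Vpreb3 and Pax5 were called in neither.

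Genes beside the B-lineage genes were set next to them. Arhgef1, which starts 715 bases from Cd79a, had a log2 fold change of 0.23 (FDR 0.0962, edgeR), and Rps19 on its other side had 0.23 (FDR 0.221, edgeR), both smaller than the 0.79 of Cd79a. Ppm1f, 25626 bases from Vpreb1, stood at -0.01 (FDR 1.0, edgeR), whereas Fgd4, 260122 bases beyond Igll1, was higher from CAST at 0.81 (FDR 8.38e-08, edgeR). Genes that overlap a B-lineage gene, such as Top3b with Vpreb1, were not taken as neighbours. Melk and Zcchc7 on either side of Pax5 were higher from CAST, at 0.35 and 0.29 (FDR 0.0659 and 0.196, edgeR), while Pax5 itself pointed to B6. Zfp386, the nearest coding gene above Ighm, was higher from CAST at 0.40 (FDR 0.0330, edgeR). Near Cd79b and Vpreb3, Gh, Gm867 and Gm5134 were called with B6 higher (FDR 0.00427, 0.0230 and 0.0341, edgeR) but were scarce, Gh and Gm5134 at 6.86 and 3.86 counts per mouse. Tmem121, Scn4a, Zfp518a, Dntt, Rnf145 and Clint1 completed the neighbours and were not called (FDR 0.280 to 1.0, edgeR's likelihood-ratio test).

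Other B-lineage genes gave a background closer in kind. Of 64 tested genes in 5 lists, 17 were called (26.6%), 10 with CAST higher and 7 with B6 higher, beside 32.6% of all genes, and their median log2 fold change was -0.03. With the mouse as a block, 33 of them were called by the likelihood-ratio test and 30 by the quasi-likelihood test. The same fits called 42.7% and 37.6% of all tested genes. Calls in these lists thus went in both directions.

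Among genes of receptor signalling and the surface, 3 of 17 were called. Cd22, an inhibitory receptor of B cells, was higher from B6 in 7 of 7 mice (36.1% ± 2.77 CAST, log2 fold change -0.82, FDR 0.000866, edgeR), and Fcrla, an Fc receptor-like protein, was higher from CAST (57.2% ± 2.29, 0.46, FDR 0.118, edgeR). The Fcrla call was lost without mouse 2 or mouse 5 (FDR 0.247 and 0.219, edgeR). Btk, the kinase that acts with Blnk, is X-linked and had 11.3% ± 2.87 CAST counts, in males that carry the X chromosome of the dam only. As the dams were B6, no CAST copy of Btk was present. Its CAST counts therefore show how far counts can be given to the wrong allele. The genes with the highest level per length in this list were Cd24a, Cxcr4 and Fcrla, at 66.4, 33.5 and 21.7 CPM per kilobase, and only Fcrla of the 3 was called, though the blocked fits also called Cd24a, with B6 higher (FDR 3.38e-05 and 0.0127, edgeR's likelihood-ratio and quasi-likelihood tests).

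For recombination and early precursor genes, 5 of 10 were called. Vpreb2 was described with Vpreb1. Flt3, a receptor of early progenitors, was the most uneven of the others at 79.5% ± 2.42 CAST counts (log2 fold change 1.97, FDR 2.37e-41, edgeR), and Bst1 and Lef1 were also higher from CAST (0.90 and 0.28, FDR 0.0109 and 0.103, edgeR). Bst1 stood at 91.6% CAST counts in mouse 7 and was higher from B6 in 2 of 7 mice, and its log2 fold change was 0.55 without mouse 7. The Lef1 call was lost without mouse 1 (FDR 0.277, edgeR) and with both alleles of a mouse given the same library size (FDR 0.206, edgeR). Cd93, found on early B cells and also on endothelium, was higher from B6 (-0.26, FDR 0.00891, edgeR) and had the highest level per length of the list at 14.6 CPM per kilobase. Rag1, the recombinase, and Dntt, which adds bases at the joints, followed at 5.08 and 5.26 CPM per kilobase and were not called (FDR 0.292 and 0.663, edgeR). With the mouse as a block Rag1 was called, with CAST higher in 7 of 7 mice (FDR 1.09e-05 and 0.00975, edgeR's likelihood-ratio and quasi-likelihood tests), and Dntt was not.

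In the transcription factor list, 1 of 15 genes was called, Pou2f2, with CAST higher (log2 fold change 0.56, FDR 0.0661, edgeR). The call was lost without mouse 7 (0.40, FDR 0.267, edgeR). Its coactivator Pou2af1 had 43.1% ± 1.97 CAST counts, lower than B6 in 7 of 7 mice, and was not called (FDR 0.338, edgeR's likelihood-ratio test). With the mouse as a block it was called (FDR 2.85e-17 and 0.000625, edgeR's likelihood-ratio and quasi-likelihood tests), as were 6 of the 15 genes by either test. Spib, Tcf3 and Pou2af1 had the highest levels per length, at 32.1, 26.8 and 18.8 CPM per kilobase.

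Mature B-cell genes were called in 6 of 13. Higher from B6 were Cd74, the invariant chain of MHC class II (39.3% ± 1.27 CAST, FDR 0.000303, edgeR), the lymphoid homing receptor Ccr7 (32.6% ± 5.91, FDR 0.00503, edgeR) and the adaptor Bank1 (33.5% ± 13.3, FDR 0.0111, edgeR). Higher from CAST were the class II regulator Ciita (66.5% ± 6.66, FDR 1.38e-07, edgeR), Iglc2 (62.5% ± 4.69, FDR 0.0230, edgeR) and Cd83 (56.4% ± 3.28, FDR 0.0103, edgeR). By level per length the list was led by Cd74, Igkc and Iglc2, at 58.8, 22.2 and 17.1 CPM per kilobase. Igkc had 50.3% ± 7.85 CAST counts and was not called.

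Of 9 tested plasma cell genes, 2 were called. These were Jchain, with CAST higher, and Ighg2b, with B6 higher (FDR 0.147 and 0.169, edgeR), both under 1 CPM. The Ighg2b call was lost under the quasi-likelihood test (FDR 0.230, edgeR), with or without the block, and without mouse 1, 4, 7 or 8 (FDR 0.289 to 0.352, edgeR). The genes with the highest levels per length in this list, Xbp1, Sdc1 and Mzb1, at 49.3, 38.6 and 11.0 CPM per kilobase, were not called (FDR 0.606, 0.760 and 0.206, edgeR). The blocked fits called Xbp1, with B6 higher (FDR 0.0577 and 0.129, edgeR's likelihood-ratio and quasi-likelihood tests), and Mzb1, with CAST higher (FDR 1.67e-06 and 0.00533), but not Sdc1. Variable segments of the heavy chain, summed, had 45.2% ± 2.23 CAST counts, and 6 of the 113 segments reached 10 counts in each mouse. Their range over mice, 42.9% to 49.2%, did not overlap the 49.7% to 55.1% of Ighm. That difference was not tested. Summed kappa and lambda segments also averaged fewer CAST counts than B6 counts, at 44.7% ± 4.92 and 38.5% ± 9.19.

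Across the 7 mice the B-lineage genes rose and fell together. All 36 pairs of the 9 genes had a positive Pearson r of log2 CPM. Significance was judged by exact permutation over all orders of the mice, with Benjamini-Hochberg adjustment over all 1332 relations of a member with a gene of the lists. After this, 23 of the 36 pairs had an adjusted p under 0.05, and 29 had an unadjusted p under 0.05.

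The closest pair were the neighbours Vpreb1 and Igll1, with r = 0.995 and rho = 1.0 (exact permutation p = 0.000198 and 0.000397, adjusted 0.00911 for r), and r = 0.999 without the mice farthest from the median of Vpreb1. Vpreb3 followed closely, with r = 0.994 to Cd79b and r = 0.991 to Ighm, both with rho = 1.0, the same p values, and r = 0.983 without the mice farthest from the median of Vpreb3. The receptor chains varied together as well. Ighm and Cd79b had r = 0.984 and rho = 1.0, again with the same p values, and r = 0.953 without the farthest mice. Cd79a and Cd79b had r = 0.974 and rho = 1.0 with the same p values, and r = 0.911 without the farthest mice. Each p is the smallest or next to the smallest that 7 mice give.

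Ebf1 followed the others less closely. The 28 pairs without Ebf1 had r from 0.809 to 0.995 with a median of 0.912, whereas the 8 pairs with Ebf1 had r from 0.519 with Cd79b to 0.892 with Blnk, and only the pair with Blnk passed (rho = 0.857, exact permutation p = 0.0109 for r and 0.0238 for rho, adjusted 0.0461, r = 0.706 without the mice farthest from the median of Blnk). Without mouse 3, the Ebf1 pairs had r from 0.730 to 0.973. The lower agreement of Ebf1 thus rested on that mouse, in which Ebf1 was at 51.2 CPM while Ighm was at its lowest.

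Leaving out a mouse also reduced how many pairs passed. Of the 36 pairs, 12 passed without mouse 1, 12 without mouse 2, 17 without mouse 4, 15 without mouse 5, 8 without mouse 7 and 7 without mouse 8. None passed without mouse 3, although 29 still had an unadjusted exact permutation p under 0.05. With 6 mice the smallest p is 0.00139, against 0.000198 with 7. The pairs stayed positive, all 36 of them, without each mouse in turn.

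A mean z-score of the 9 genes (log2 CPM, each gene scaled to its own mean and SD) summed up each mouse, at -1.34 for mouse 3, -0.85 for mouse 4, -0.35 for mouse 2, 0.04 for mouse 8, 0.24 for mouse 1, 1.08 for mouse 7 and 1.17 for mouse 5. Correlations with this score are given as descriptions over 7 mice, and all genes of a mouse share its library and depth. Over the receptor signalling and surface genes the median r was 0.955 (17 genes, from 0.830 to 0.985), over transcription factors 0.924 (15 genes) and over mature B-cell genes 0.922 (12 genes). Syk, Cd22 and Plcg2, which act around the B-cell receptor, reached 0.985, 0.985 and 0.983.

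Early precursor genes were split around a median of 0.727. Rag1 had r = 0.989 with the score, Bst1 0.956, Rag2 0.924 and Il7r 0.910, but Dntt had 0.666, Erg 0.306, Flt3 0.265 and Lef1 0.128. The 6 plasma cell genes with enough counts had a median of 0.630, among which Mzb1 had 0.948, while Sdc1, a syndecan, had -0.505. The factor Tcf4 stood at -0.352, alone among the 15 transcription factors below 0.

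Genes of other marrow cells also moved with the B-lineage genes. The median r with the score was 0.826 over 9 erythroid markers, 0.810 over 8 megakaryocyte markers, 0.710 over 5 T and NK cell markers, 0.705 over 10 neutrophil markers and 0.616 over 10 macrophage and monocyte markers. Summed levels ran from 8389 CPM in mouse 3 to 20350 CPM in mouse 5 for erythroid markers, from 1637 CPM in mouse 2 to 3510 CPM in mouse 5 for neutrophil markers and from 93.1 CPM in mouse 4 to 195 CPM in mouse 7 for megakaryocyte markers, in which Itga2b and Pf4 led at 51.6 and 33.0 CPM. Their part in the spread of the B-lineage genes was not tested.

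Markers of T cells were scarce. Summed over the list they ran from 14.5 to 24.6 CPM, with Lck and Cd4 highest at 5.96 and 5.36 CPM. Cd3e was at 0.0944 CPM, and Cd3g averaged 0.0871 CPM and had 0 counts in at least 1 mouse. The macrophage and monocyte markers ran from 837 to 1263 CPM, led by Lyz2 and Csf1r at 522 and 258 CPM, and none of them was at 0.

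Cartilage and bone markers went with the B-lineage genes weakly or in the opposite direction. The median r with the score was -0.242 over 10 chondrocyte markers, -0.297 over 8 endothelial markers, -0.346 over 8 osteoblast markers and 0.302 over 10 osteoclast markers. Osteoclast markers were thus near the median of 0.276 over all other genes. With TMM-scaled library sizes the order changed, to -0.202 for chondrocyte, -0.624 for endothelial, -0.618 for osteoblast and 0.079 for osteoclast markers. Summed chondrocyte markers ran from 56540 CPM in mouse 8 to 93260 CPM in mouse 4, and osteoblast markers from 36360 CPM in mouse 7 to 66000 CPM in mouse 2, with Col1a1 and Bglap leading. Osteoclast markers, led by Mmp9 and Acp5 at 2056 and 1895 CPM, ran from 4343 to 6342 CPM, and endothelial markers, led by Vwf and Pecam1 at 99.2 and 72.4 CPM, from 299 to 427 CPM. Genes of the marrow support for B cells had a median r of -0.078 over 6 genes (-0.444 with TMM scaling), among which Cxcl12, the chemokine that holds B-cell precursors in marrow, had 0.872 and Lepr -0.273. Of 7 tested genes of that list 2 were called between alleles, Cxcl12 and Il7, both with CAST higher (FDR 0.0671 and 0.167, edgeR). The Il7 call was lost under the quasi-likelihood test with the block (FDR 0.306, edgeR).

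**Figure D4:**
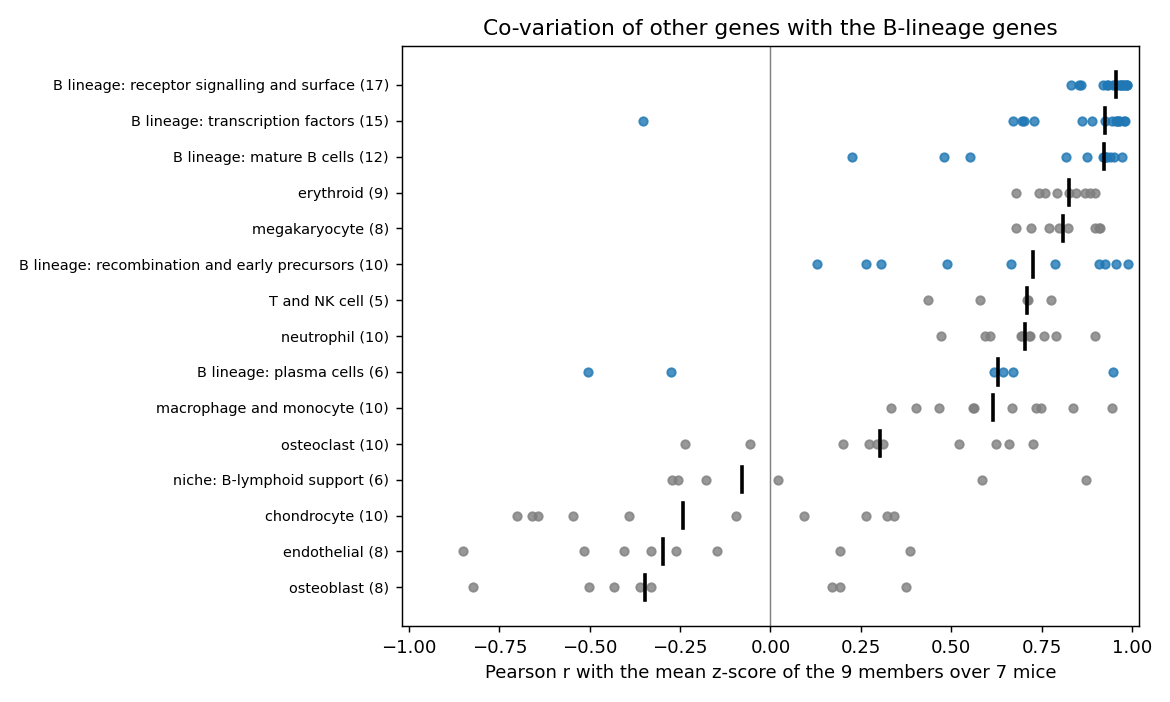
Pearson r of each list gene's log2 CPM with the mean z-score of the 9 B-lineage genes over 7 mice, by list, with a point per gene, a black line at the list median and the number of genes in brackets. Of the 5 B-lineage lists (blue), 3 lie at the top with medians of 0.922 to 0.955. The 2 others, early precursors at 0.727 and plasma cells at 0.630, lie among the blood cell markers at 0.616 to 0.826, and osteoblast markers are lowest at -0.346.

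Among all 15102 other genes that reached 10 counts in each mouse, 516 (3.42%) had r above 0.9 with the score, beside 34 of 60 genes (56.7%) in the other B-lineage lists. The 10 genes most like it were Rasgrp2, Acss1, Slamf7, Laptm5, Traf3ip3, B3gnt5, Rag1, Gm45837, Il16 and Cyb561a3. Their r ran from 0.998 for Rasgrp2, at 44.0 CPM, to 0.988 for Cyb561a3, at 16.3 CPM. Of these 10 genes, Rag1 was the only one on a list.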

How the data were processed

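RNA of growth plates from 7 mice was sequenced as stranded, rRNA-depleted libraries. The authors aligned reads with Bowtie to a transcriptome holding the B6 (mm10) and CAST version of each transcript, with at most 3 mismatches. The deposited estimated counts per gene and allele were made by the authors with EMASE, lane by lane and with read ends run apart. EMASE divides reads that match both alleles or several genes, so counts need not be whole and nearby copies such as Vpreb1 and Vpreb2 are uncertain. The counts are not normalized.

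Gene names, coordinates and exon lengths came from GENCODE M21 (GRCm38/mm10), which holds 98.0% of the gene identifiers, and promoters from RefSeq (GRCm38.p6). Rounded counts were compared with edgeR 4.0.16 (limma 3.58.1, R 4.3.3; TMM, allele in the design, glmFit and glmLRT, Benjamini-Hochberg FDR) in 21805 genes with a count above 0 on at least 1 allele in every mouse, of which 1406 averaged under 1 count. SE values are the fold change divided by the root of the likelihood ratio. The fit was tested on simulated counts. DESeq2 1.42.0, the quasi-likelihood test, other library sizes, filters and thresholds, the mouse as a block and each mouse left out were alternatives. Pairing comes from the animal. Deviations of same-mouse columns correlated at a mean of 0.054 (lowest -0.074), against a mean of -0.009 between mice (highest 0.171). The highest value between mice thus exceeded the mean of same-mouse columns. Sign-flip tests used log2 ratios with a pseudocount of 0.5, and correlations log2(CPM + 0.1). CPM used the whole file total, of which 15.5% to 23.8% fell on Rn7s1, Rn7s2 and Rn7sk. Python 3 with numpy, pandas and scipy made the summaries.

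Named were all 9 genes, the 3 highest per length and the called genes of each B-lineage list that reached 10 counts in each mouse. Also named were the 2 most abundant genes of each marker list, the 10 most alike genes and the nearest tested coding neighbours that overlap none of the 9. Other genes were named after their values were seen. The genes and lists were chosen with earlier results of these data known. Nothing states how the 7 animals were divided over litters, and no batch is labelled.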

Additional observations from a re-analysis of the deposited data

Results flagged for a closer look

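In 19 sets of 7 values (the CPM and the log2 allele ratio of each of the 9 genes, and their summed CPM), the gap of the highest or lowest mouse to its neighbour was set against the whole range. It exceeded Dixon's 95% critical value in 2 sets, and chance alone gives about 1 in 20. The log2 ratio of CAST to B6 for Pax5 was 0.934 in mouse 4, with a gap of 0.771 of the range, while the 6 other mice lay between -0.62 and -0.26. The log2 ratio for Vpreb1 was -0.072 in mouse 3, with a gap of 0.594 of the range, while the others lay between 0.30 and 0.55. Neither mouse stood apart by this measure in the CPM of the same gene.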

How the results depend on the processing

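The count of called B-lineage genes, 3, rose to 7 and 6 in fits using a replicate block for the mouse (likelihood-ratio and quasi-likelihood test), fell to 1 at an FDR under 0.05 and was 2 to 4 with each mouse left out. For the other B-lineage lists, 17 calls became 33 and 30 with the block and were 15 to 21 with each mouse left out. Over all 21805 tested genes, the share called went from 32.6% to 42.7% and 37.6% with the block. At an FDR under 0.05, 4816 of them were called. The blocked fits pair the alleles of an animal and so remove the spread between mice. The 334 of 1332 relations across mice with an adjusted p under 0.05 became 0 to 304 with each mouse left out, 0 without mouse 3, where 426 had an unadjusted exact permutation p under 0.05. They were 187 without mouse 1, 192 without mouse 2, 150 without mouse 5, 79 without mouse 7 and 131 without mouse 8, with fewer orders to permute. No fold change of the 9 genes changed sign under any alternative. Under all alternatives, 141 of their fits kept the side of the threshold, 8 gained a call and 4 lost one. The sign-flip result of Cd79b was lost when each allele was divided by its own total (-0.05, exact permutation p = 0.0781). With the abundant noncoding RNAs left out of the total, levels of the 9 genes rose together, their sum from 625 to 784 CPM. The genome-wide count, 7111, was 4816 to 9315 under all alternatives. A Pax5 total of 159 to 539 counts per mouse limits what its allele share can show.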
